A study of Mus musculus with 8 samples.

Results

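The collagen genes were described in the cerebellum of mice that lack *Atm*, the gene of the kinase ATM that is mutated in ataxia-telangiectasia. Members were taken by name. They are the protein-coding mouse genes whose symbol consists of Col, a number, the letter a and a number, so each of them encodes a chain of a collagen. The annotation held 44 such genes, all of which were among the 56691 genes of the count table and had at least 1 count, and 43 of them were among the 22423 genes with enough counts to be tested. *Col10a1*, the chain made by hypertrophic cartilage, had from 0 to 10 counts per mouse and was not tested.

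Bulk RNA sequencing covered the cerebellum of 4 *Atm*-WT mice (*Atm* +/+ littermates, labelled 2M, 7M, 13M and 32M) and 4 *Atm*-KO mice (*Atm* -/-, labelled 1M, 7F, 11M and 12M), with a library for each mouse and no treatment named in the labels. The mice were 6 months old and came from crosses of heterozygotes of the B6;129S4-*Atm*tm1Bal/J line, which carries its mutation in every tissue, and animals of that line were flushed with saline before their brains were taken. Library totals lay between 76912738 and 88030300 counts for *Atm*-WT, and for *Atm*-KO between 65967130 and 78431478. Levels are given as CPM (counts of the gene divided by those of the library and scaled to 1000000, with TMM factors), and differences as log2 fold changes of *Atm*-KO against *Atm*-WT from the edgeR quasi-likelihood test, with p-values adjusted by Benjamini-Hochberg over all genes tested. *Atm* itself was at 67.6, 80.0, 79.4 and 59.0 CPM in the *Atm*-WT mice and at 51.1, 44.3, 41.1 and 44.9 CPM in the *Atm*-KO mice, so the genotypes did not overlap but the gene did not pass the threshold (log2 fold change -0.66, adjusted p = 0.0775 by edgeR), and its counts are summed over the whole gene rather than the mutated part. *Xist*, which is made by the inactive X chromosome, was at 910 CPM in mouse 7F and at no more than 0.163 CPM in the others, and genes of the Y chromosome summed to 12.8 CPM in mouse 7F against 205 to 244 CPM, which matched the letters of the labels. Mouse 7F was thus the only female, and the *Atm*-WT mice were all male. Where a value below hinges on mouse 7F, its sex cannot be told apart from other traits of that mouse. Markers of granule cells summed to between 5830 and 8296 CPM and those of Purkinje cells to between 8183 and 10273 CPM, so the defining neurons of the labelled tissue were present. The labels give no batch and pair no mice.

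Collagens are secreted or membrane-bound proteins whose chains wind in threes into a triple helix. Fibrillar collagens such as types I, III and V build the fibrils of connective tissue, type IV forms the sheet of basement membranes, type VI forms beaded filaments, and the fibril-associated collagens (FACIT) sit on fibrils made by others. In the brain they lie chiefly in the meninges, around blood vessels and under the choroid plexus, the epithelium that secretes cerebrospinal fluid. Bulk tissue does not tell fewer cells of a type from less RNA per cell, which holds for every difference below.

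The promoters of 3 members that recur below are shown because *Col8a1* and *Col8a2* encode the chains of type VIII collagen and varied together across mice, and *Col5a1* had the smallest p of the family. The sequences are the 250 bases before the start site in RefSeq on GRCm38.p6, in the sense of the gene, and come from chr16:57754738-57754987 on the minus strand for *Col8a1*, from chr4:126286544-126286793 on the plus strand for *Col8a2* and from chr2:27886175-27886424 on the plus strand for *Col5a1*. Capitals mark GC boxes (GGGCGG on either strand), which the factor SP1 can bind.
Col8a1: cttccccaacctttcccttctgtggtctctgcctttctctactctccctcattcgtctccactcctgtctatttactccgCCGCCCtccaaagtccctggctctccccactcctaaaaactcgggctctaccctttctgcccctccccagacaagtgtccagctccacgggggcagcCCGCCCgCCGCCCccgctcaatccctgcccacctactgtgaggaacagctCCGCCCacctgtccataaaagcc
Col8a2: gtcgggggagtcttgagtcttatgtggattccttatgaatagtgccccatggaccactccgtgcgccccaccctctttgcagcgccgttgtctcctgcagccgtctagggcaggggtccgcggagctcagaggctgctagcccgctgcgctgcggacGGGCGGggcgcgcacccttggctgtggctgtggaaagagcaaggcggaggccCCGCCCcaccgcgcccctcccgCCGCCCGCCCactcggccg
Col5a1: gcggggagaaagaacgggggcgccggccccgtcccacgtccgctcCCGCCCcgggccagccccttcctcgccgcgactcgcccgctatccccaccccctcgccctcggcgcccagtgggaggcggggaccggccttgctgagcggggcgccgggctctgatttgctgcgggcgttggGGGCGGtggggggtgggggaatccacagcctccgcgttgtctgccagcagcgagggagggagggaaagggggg
The *Col8a1* and *Col8a2* windows held 4 GC boxes each, with overlaps in the latter, and the *Col5a1* window held 2. None of the 3 windows held a TATA box (TATAAA) or a CCAAT box on either strand. RefSeq promoters were at hand for 35 of the 44 genes (38 windows). A GC box was in 57.9% of these windows against 32.7% of all 32851 windows of the same length, a CCAAT box in 34.2% against 33.8%, and a TATA box in 13.2% against 12.4%. The median GC content was 59.0% in the collagen windows and 52.4% in all windows. A match says only that the letters are there.

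The level of the 43 tested collagens spread over more than 2 orders of magnitude when counted per kb of exon, from 0.0311 to 10.2 CPM per kb, with a median of 0.653. At least 1 CPM per kb was reached by 16 genes. *Col18a1*, whose chain carries the fragment endostatin and sits in basement membranes, stood first at 9.52 CPM per kb in *Atm*-WT mice against 10.9 in *Atm*-KO. *Col9a3*, a FACIT chain best known from cartilage, followed at 5.56 and 4.87 CPM per kb. The next 6 were *Col4a1* (3.45 and 2.97), *Col8a2* (3.30 and 2.46), *Col1a2* (2.74 and 2.67), *Col4a2* (2.67 and 2.52), *Col1a1* (2.11 and 2.56) and *Col9a2* (2.33 and 2.20), as means of *Atm*-WT and *Atm*-KO mice in CPM per kb, and the genotypes overlapped for each of them. The order of neighbours from *Col8a2* to *Col9a2* changed between the genotypes. Lengths are those of all annotated exons merged, such as 12650 bases for *Col1a2* against 4525 for *Col9a3*. The order, and the ratios of chains per kb below, thus depend on the annotation. In CPM, without lengths, *Col1a2* stood above *Col9a3* in both genotypes, with means of 34.6 and 25.2 CPM in *Atm*-WT mice. At the low end 8 tested members had a mean under 1 CPM, among them *Col6a4*, *Col6a5* and *Col6a6*, the late-described chains of type VI.

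**Figure D1:**
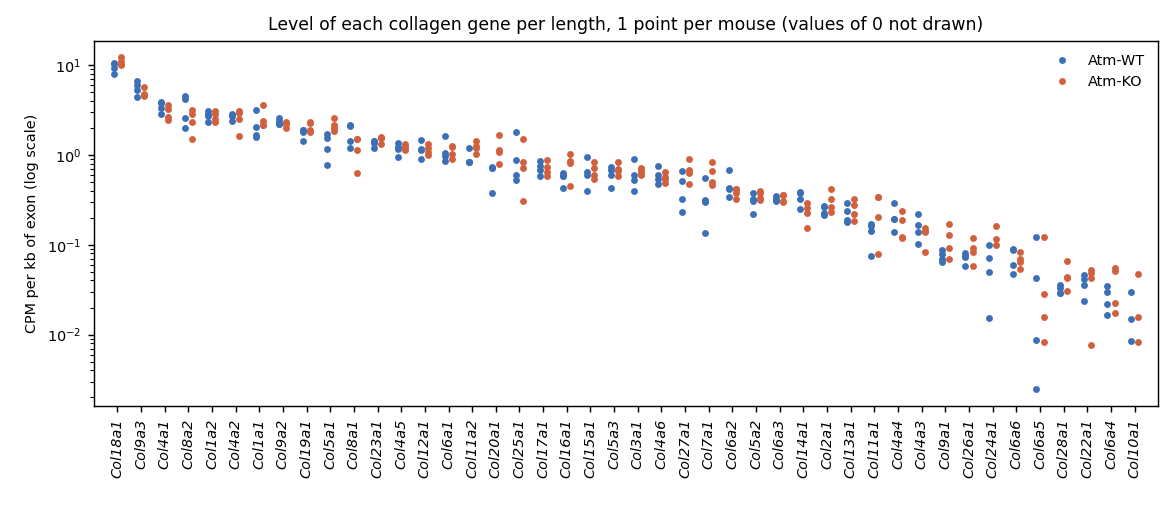
Level of each of the 44 collagen genes in each mouse, in CPM per kb of exon on a log scale, with genes ordered by their mean over all 8 mice (blue *Atm*-WT, orange *Atm*-KO, a point per mouse, values of 0 not drawn). *Col18a1* and *Col9a3* lead, and among the tested genes the points of the genotypes overlap for all but *Col5a1* and *Col20a1*.

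No collagen gene passed an adjusted p of 0.05 by edgeR. The lowest adjusted p of the family was 0.117, and over all genes tested 0.0178% passed. At an unadjusted p under 0.05, 4 of 43 collagens were higher in *Atm*-KO mice (9.30%, *Col5a1*, *Col20a1*, *Col11a2* and *Col7a1*), where 11.7% of all genes were, and 1 was lower (2.33%, *Col14a1*), where 8.48% were. The levels of the genotypes did not overlap for 2 collagens that were higher in *Atm*-KO mice (4.65%, *Col5a1* and *Col20a1*) against 6.47% of all genes, and for 0 that were lower against 5.12%. Of the 15322 protein-coding genes tested, 7% were higher and 11.7% lower at that level, and 4.4% were higher and 6.98% lower with no overlap. So for members higher in *Atm*-KO mice the shares lay under those of all genes and above those of protein-coding genes, and for members lower they lay under both. In 25 members the fold change was above 0, that is higher in *Atm*-KO mice, and in 18 below. Of all genes tested 10523 were above 0 and 11900 below, and of protein-coding genes 5540 and 9782, the background of each count of directions below. The collagens had a median of 0.07 against -0.018 for all genes tested and -0.061 for protein-coding genes. That median ran from 0.064 to 0.18 over the alternatives and was 0.11 without mouse 2M, 0.14 without mouse 11M or 12M and 0.18 without mouse 7M. For 27 members the fold change was under 0.3 in size on the log2 scale. DESeq2, run as an alternative on the same counts, called 2 of 43 (4.65%), *Col5a1* (adjusted p = 0.0108) and *Col20a1* (adjusted p = 0.0111), where it called 7.49% of all genes. Over all 18 alternatives, the adjusted p of *Col5a1* ran from 0.0108 to 0.308 and that of *Col20a1* from 0.0111 to 0.307. Without *Atm*-KO mouse 12M the genotypes did not overlap for 7 collagens (16.3%), all higher in *Atm*-KO mice, where 7.45% of all genes and 5.13% of protein-coding genes were higher with no overlap. Without *Atm*-WT mouse 7M the members higher at an unadjusted p under 0.05 were 7 (16.3%), against 11.3% of all genes and 6.39% of protein-coding genes.

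**Figure D2:**
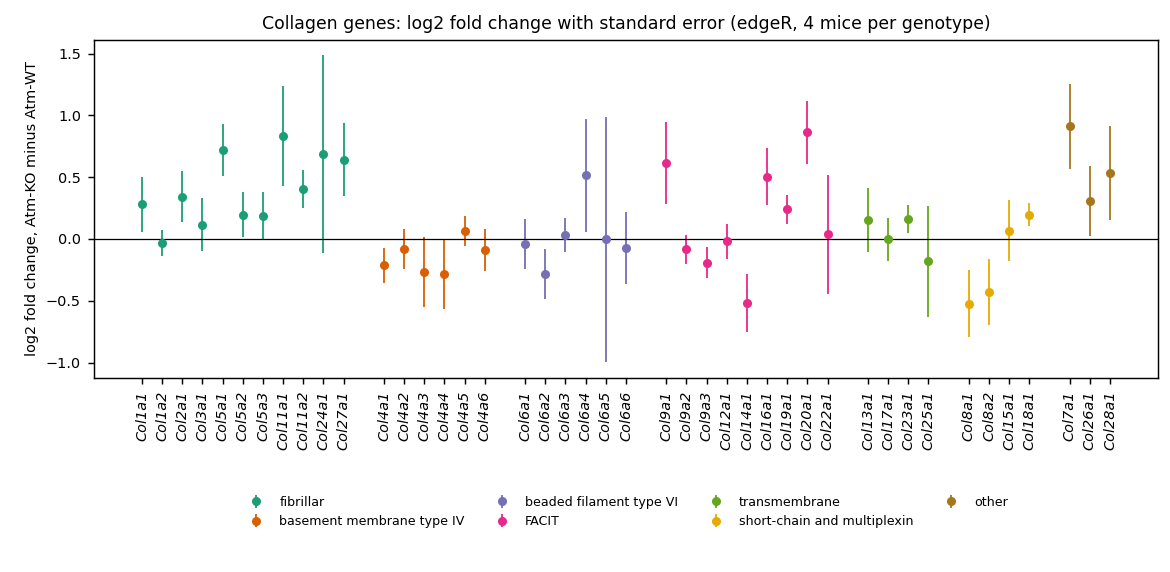
Log2 fold change of each tested collagen gene, *Atm*-KO minus *Atm*-WT, with its standard error from edgeR (4 mice per genotype), coloured by class. Of the 11 fibrillar chains 10 lie above 0, and none of the 43 genes passed the adjusted threshold.

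Among the fibrillar chains, 10 of 11 were above 0 and 1 below, with a median log2 fold change of 0.34 that was 0.20 without *Atm*-KO mouse 7F, and over the alternatives 9 to 11 were above 0. *Col5a1*, the chain of type V that starts the assembly of fibrils, was the member with the smallest p. It lies at chr2:27776397-27929526 on GRCm39. Its level was 14.9, 13.4, 10.2 and 6.65 CPM in the *Atm*-WT mice and 18.9, 17.3, 15.95 and 22.3 CPM in the *Atm*-KO mice. Each *Atm*-KO mouse was above each *Atm*-WT mouse, and *Atm*-WT mouse 32M was the lowest of all. The log2 fold change was 0.72 (SE 0.21, adjusted p = 0.117 by edgeR), and the two-sided exact permutation p was 0.0286 (n = 4 mice per genotype), the smallest that 4 against 4 allows. Any gene without overlap gets this p, so it adds nothing to the lack of overlap. Without mice 32M and 12M, an alternative chosen after seeing the data, the log2 fold change was 0.44. Its partner *Col5a2* was at 3.44 ± 0.723 CPM in *Atm*-WT mice against 3.95 ± 0.405 CPM in *Atm*-KO (SD, n = 4), and the third chain, *Col5a3*, at 4.21 ± 0.911 and 4.79 ± 0.753 CPM. The log2 fold changes of the other fibrillar chains that are best known from cartilage or are sparse in brain were 0.34 (SE 0.21) for *Col2a1*, 0.83 (SE 0.41) for *Col11a1*, 0.64 (SE 0.30) for *Col27a1* and 0.69 (SE 0.80) for *Col24a1*, and none of these 4 had an unadjusted p under 0.05. Without mouse 7F *Col2a1* was at 0.18, and *Col24a1*, with a mean under 1 CPM, ranged from 0.31 without 11M to 1.09 without 12M and was -0.27 with limma voom.

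*Col11a2*, a chain of type XI that joins type V in thin fibrils, had 8.77, 6.25, 6.25 and 6.23 CPM in *Atm*-WT mice against 9.33, 8.83, 10.7 and 7.59 CPM in *Atm*-KO. *Atm*-WT mouse 2M stood above the lowest *Atm*-KO mouse, so the groups overlapped by 1 mouse (log2 fold change 0.41, SE 0.15, adjusted p = 0.176 by edgeR). *Col1a1* and *Col1a2* encode the chains of type I collagen, the main fibril former. *Col1a1* was at 13.4, 20.5, 11.05 and 10.5 CPM in *Atm*-WT mice against 14.1, 23.6, 15.5 and 14.1 CPM in *Atm*-KO. *Col1a2* was at 35.7, 38.8, 34.5 and 29.4 CPM against 29.4, 38.5, 35.7 and 31.5 CPM. Mice 7M and 7F were the highest for both chains, and the genotypes overlapped over most of their range (log2 fold changes 0.28, SE 0.22, and -0.034, SE 0.10). Without mouse 7F the log2 fold change of *Col1a1* was 0.090, without 32M 0.17 and without 7M 0.53. That of *Col1a2* turned to 0.022 without 7M, 0.026 without 1M and 0.015 with library size alone. Per kb of exon the ratio of *Col1a2* to *Col1a1* RNA ran from 0.848 to 1.62 over the 8 mice. This ratio depends on the merged exon lengths used, 12650 bases for *Col1a2* and 6567 for *Col1a1*. It is a ratio of RNA and does not give that of the chains in the protein, where type I collagen holds more of the *Col1a1* chain. *Col3a1*, the fibrillar collagen of soft tissue and vessel walls, was at 6.16 ± 2.20 CPM in *Atm*-WT mice against 6.67 ± 0.513 CPM in *Atm*-KO. The genes outside the family whose log2 level was most like the sum of *Col1a1* and *Col1a2* over the 8 mice were *Sel1l* (Pearson's r = 0.968), *Dync1h1* (0.962) and *Nwd2* (0.956) among the 15704 genes whose mean reached 1 CPM. These 3 are the highest of 15704 correlations over 8 mice with no chance level computed, so they say nothing of the cells that make this RNA.

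**Figure D3:**
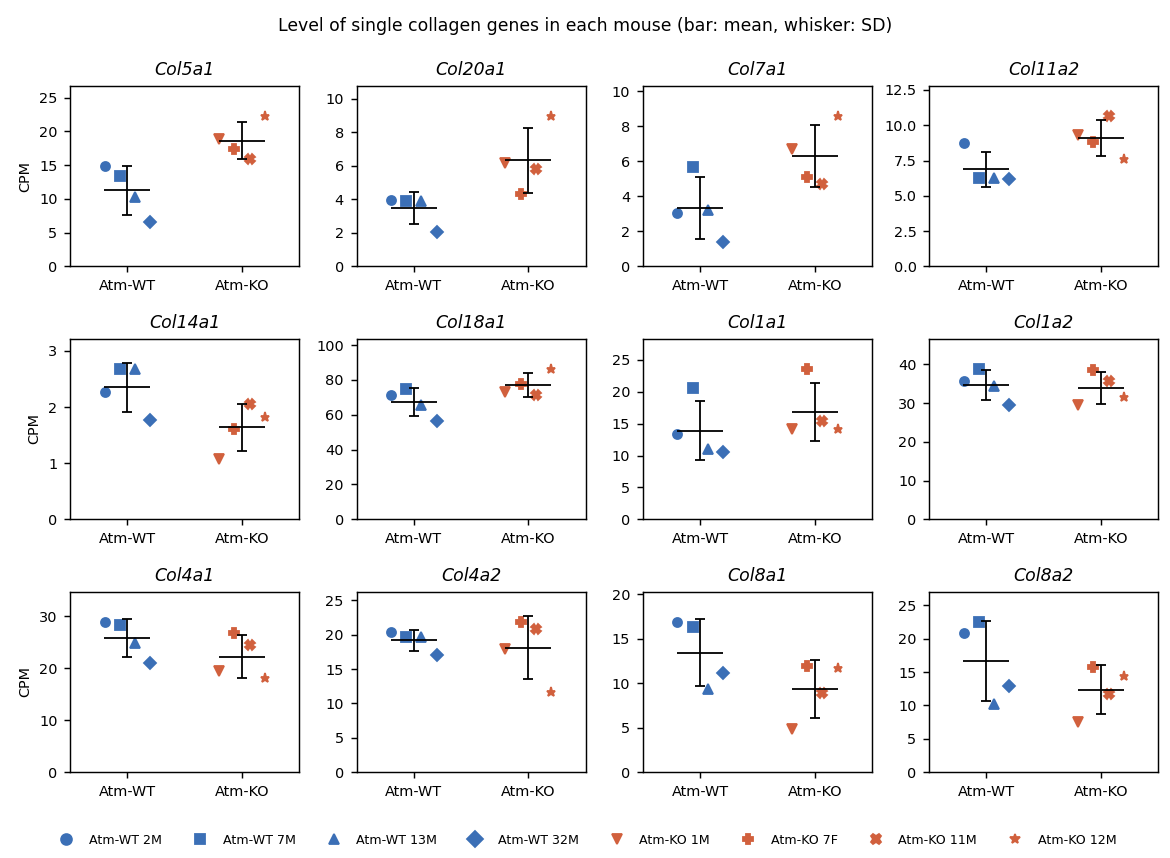
Level in CPM of 12 collagen genes in each of the 8 mice, with a symbol per mouse, the mean as a bar and the SD as whiskers. Points of the genotypes separate for *Col5a1* and *Col20a1* and overlap in the other 10 panels.

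Type IV collagen is the network of basement membranes, and 5 of its 6 chains had fold changes below 0, with a median log2 fold change of -0.15, and over the alternatives 4 to 6 were below 0. The median was -0.069 without mouse 2M, -0.067 without 7M, -0.089 without 1M and -0.23 without 7F. *Col4a1* was at 29.0, 28.3, 24.8 and 21.0 CPM in *Atm*-WT mice against 19.4, 26.8, 24.4 and 18.0 CPM in *Atm*-KO. *Col4a2* was at 20.4, 19.6, 19.7 and 17.0 CPM against 17.9, 21.9, 20.9 and 11.7 CPM. *Atm*-KO mouse 12M was the lowest for both chains, the groups overlapped, and neither gene passed (log2 fold changes -0.21, SE 0.14, and -0.082, SE 0.16, which were -0.13 and 0.077 without mouse 12M). The chains wind into the same helix and their genes lie head to head on chromosome 8, with RefSeq start sites 21 bases apart. The ratio of *Col4a1* to *Col4a2* per kb of exon stayed between 1.04 and 1.48, but 311 exon bases are common to both genes on opposite strands, and reads there cannot be assigned. The X-linked neighbours *Col4a5* and *Col4a6* were at 10.9 ± 1.67 and 4.72 ± 0.929 CPM in *Atm*-WT mice against 11.5 ± 0.703 and 4.45 ± 0.551 CPM in *Atm*-KO, and *Col4a3* and *Col4a4*, known from the kidney filter, did not exceed 3.34 CPM in any mouse.

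*Col18a1* had 71.6, 74.8, 65.8 and 56.7 CPM in *Atm*-WT mice against 73.1, 77.7, 71.1 and 86.4 CPM in *Atm*-KO. The highest *Atm*-WT mice reached into the *Atm*-KO range (log2 fold change 0.20, SE 0.093, adjusted p = 0.260 by edgeR, and 0.12 without mouse 32M). Its exons share 896 bases with *Slc19a1*, a folate carrier on the opposite strand, and as no source names a strand setting, reads of that stretch cannot be assigned. The same limit holds for 27 collagen genes that share exon bases with a gene on the other strand, among them *Col5a1* (99 and 113 bases with different genes), *Col20a1* (150), *Col7a1* (137), *Col8a1* (92), *Col8a2* (68), *Col14a1* (269), *Col1a2* (1308) and *Col12a1* (698 and 198). *Col15a1*, the other multiplexin, was at 4.47 ± 1.58 CPM in *Atm*-WT mice against 4.69 ± 0.930 CPM in *Atm*-KO.

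Type VIII collagen is a short-chain collagen that forms lattices beneath endothelia, and it had the 2 lowest fold changes of its class. *Col8a1* is named here although its values were seen first. *Col8a1* was at 16.9, 16.3, 9.32 and 11.1 CPM in *Atm*-WT mice against 4.87, 11.9, 8.90 and 11.7 CPM in *Atm*-KO. *Col8a2* was at 20.9, 22.5, 10.1 and 12.98 CPM against 7.57, 15.8, 11.8 and 14.4 CPM. *Atm*-WT mice 2M and 7M were the highest and *Atm*-KO mouse 1M the lowest for both chains, and the other 5 mice of the genotypes mixed. The log2 fold changes were -0.52 (SE 0.27, adjusted p = 0.298) and -0.43 (SE 0.27, adjusted p = 0.388) by edgeR, and without mouse 1M they were -0.31 and -0.25, while *Col8a2* was also at -0.25 without 7M. The ratio of *Col8a2* to *Col8a1* per kb of exon was between 1.69 and 2.41 in each mouse.

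The 10 markers of choroid plexus epithelium, led by *Ttr*, *Kl* and *Tmem72*, varied in the same mice. Their summed level was 1685, 1553, 848 and 1035 CPM in the *Atm*-WT mice and 465, 1032, 841 and 1308 CPM in the *Atm*-KO mice, and none of the 10 was near 0. *Ttr* made up most of the sum in each mouse, such as 1341 CPM in mouse 2M and 352 CPM in mouse 1M. The relations with the sum are thus mostly relations with *Ttr*. All 10 had fold changes below 0, as had 9782 of the 15322 protein-coding genes tested. The median log2 fold change of the 10 was -0.55, and -0.34 without *Atm*-KO mouse 1M. At an unadjusted p under 0.05, 2 of the 10 (20%, *Clic6* and *Folr1*) were lower, where 8.48% of all genes and 11.7% of protein-coding genes were. Over the 8 mice, the log2 level of *Col8a1* followed the summed markers with Pearson's r = 0.984 (exact permutation p = 0.000248, adjusted p = 0.0373 over the 301 relations of 43 collagens with 7 quantities) and Spearman's rho = 0.929 (adjusted p = 0.168). Without the mice farthest from the median marker level (2M and 1M), r was 0.935. For *Col8a2*, r was 0.947 (exact permutation p = 0.000595, adjusted p = 0.0597), rho was 0.881 (exact permutation p = 0.00724) and r without the same mice was 0.889. With the mean of each genotype removed, an alternative chosen after seeing the data, r was 0.980 for *Col8a1* (exact permutation p = 0.00521 over the 576 arrangements of mice within genotypes, adjusted p = 0.261 over 301 relations) and 0.937 for *Col8a2* (exact permutation p = 0.00694, adjusted p = 0.261), so the relations had a similar size. With 576 arrangements, no single relation can pass the adjustment over 301, whatever its size, so the adjusted values decide nothing here. The genes outside the family most like the sum of both chains were *Mfrp* (r = 0.991), *Enpp2* (0.990), which encodes the secreted enzyme autotaxin, and *Slc4a2* (0.976), an anion exchanger. This list was chosen after the values were seen, is the top of many correlations and has no chance level. The part of the choroid plexus in the difference between genotypes was not tested.

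**Figure D4:**
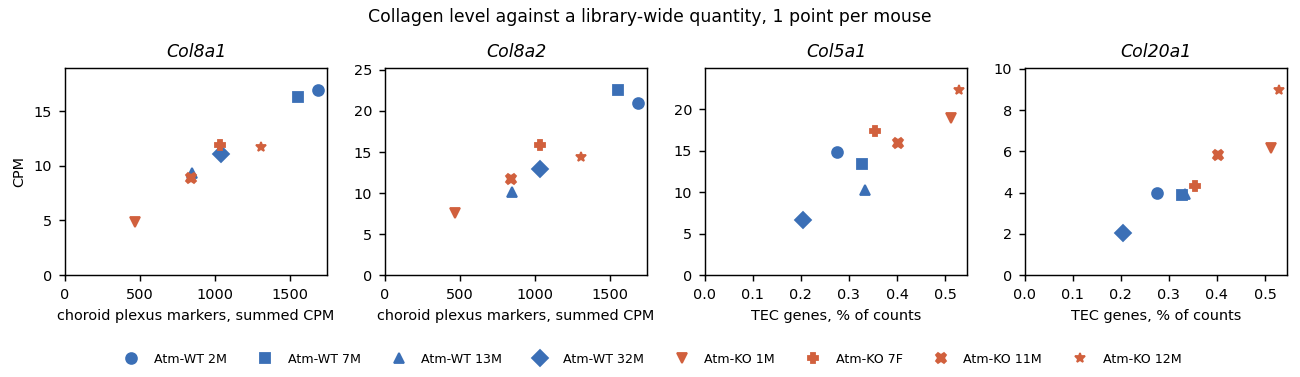
Levels in CPM of *Col8a1* and *Col8a2* against the summed CPM of 10 choroid plexus markers, and of *Col5a1* and *Col20a1* against the percent of counts on TEC genes, with a symbol per mouse. *Col8a1* goes from 4.87 CPM in *Atm*-KO mouse 1M to 16.9 CPM in *Atm*-WT mouse 2M along the marker axis, and *Col20a1* goes from 2.06 CPM in *Atm*-WT mouse 32M to 8.97 CPM in *Atm*-KO mouse 12M along the TEC axis.

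The FACIT class held members on either side, with 5 of 9 above 0 and 4 below, and its median log2 fold change of 0.040 kept its sign in 17 of 19 settings, from -0.079 without mouse 11M to 0.19 without 12M. *Col20a1*, at chr2:180628316-180660156 on GRCm39, had 3.98, 3.91, 3.93 and 2.06 CPM in *Atm*-WT mice against 6.18, 4.30, 5.83 and 8.97 CPM in *Atm*-KO. The genotypes did not overlap, and the gap between the nearest mice was small beside the spread within *Atm*-KO (log2 fold change 0.86, SE 0.25, adjusted p = 0.120 by edgeR, two-sided exact permutation p = 0.0286, n = 4 mice per genotype). Here too the permutation p follows from the lack of overlap. The log2 fold change was 0.46 without mice 32M and 12M and 0.55 with a surrogate variable. *Col14a1*, a FACIT chain that spaces fibrils in skin and tendon, was at 2.27, 2.67, 2.68 and 1.77 CPM in *Atm*-WT mice against 1.08, 1.60, 2.05 and 1.82 CPM in *Atm*-KO. It had the smallest p of the members below 0, with mouse 32M inside the *Atm*-KO range (log2 fold change -0.52, SE 0.23, adjusted p = 0.243 by edgeR). *Col19a1*, which neurons express at synapses, was at 22.3 ± 2.84 CPM in *Atm*-WT mice against 26.4 ± 3.42 CPM in *Atm*-KO (log2 fold change 0.24, SE 0.12, adjusted p = 0.270 by edgeR, and 0.15 without mouse 32M). The log2 fold change was 0.50 (SE 0.23) for *Col16a1* and 0.040 (SE 0.48) for *Col22a1*, a gene with a mean under 1 CPM that ranged from -0.15 without mouse 11M to 0.37 without 12M.

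Type IX collagen is made of 3 different chains, and their levels were far from equal. *Col9a3* had 26.8, 30.4, 19.95 and 23.6 CPM in *Atm*-WT mice against 20.4, 21.4, 20.8 and 25.5 CPM in *Atm*-KO. *Col9a2* had 7.31, 6.81, 6.90 and 7.90 CPM against 6.89, 6.16, 7.07 and 7.15 CPM. *Col9a1* had 0.396, 0.322, 0.443 and 0.350 CPM against 0.355, 0.852, 0.464 and 0.651 CPM, so that per kb of exon *Col9a3* exceeded *Col9a1* by 28.1 to 105 times. The genotypes overlapped for each chain, and none had an unadjusted p under 0.05. *Col9a3* shares 535 exon bases with *Tcfl5* on the opposite strand, a gene whose mean was 0.121 CPM in *Atm*-WT mice against 0.0719 CPM in *Atm*-KO.

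*Col7a1* encodes the anchoring fibrils of skin. Its level was 3.07, 5.66, 3.24 and 1.40 CPM in *Atm*-WT mice against 6.72, 5.12, 4.71 and 8.59 CPM in *Atm*-KO. *Atm*-WT mouse 7M lay inside the *Atm*-KO range and the other 3 below it (log2 fold change 0.91, SE 0.34, adjusted p = 0.177 by edgeR). Without mice 32M and 12M the log2 fold change was 0.47, and with a surrogate variable 0.59. It is on chromosome 9, as is *Atm*, and 55.3 Mb away from it, and of the 6 members on that chromosome the nearest, *Col12a1*, is 26.1 Mb away and had a log2 fold change of -0.019 (SE 0.14). *Col26a1* and *Col28a1*, like *Col7a1* outside the larger classes, had means under 1 CPM and log2 fold changes of 0.31 (SE 0.28) and 0.53 (SE 0.38), which were 0.14 and 0.31 without mouse 11M. That of *Col26a1* was 0.48 without mouse 7F.

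Genes of the GENCODE class TEC, transcripts that still await experimental testing, took 0.276%, 0.327%, 0.333% and 0.204% of the counts in the *Atm*-WT mice and 0.513%, 0.354%, 0.402% and 0.529% in the *Atm*-KO mice, with no overlap. The log2 level of *Col20a1* followed this share over the 8 mice with r = 0.956 (exact permutation p = 0.000124, adjusted p = 0.0373) and rho = 0.929 (adjusted p = 0.168), and without mice 32M and 12M r was 0.893. For *Col7a1* r was 0.926 (adjusted p = 0.0859 from the exact permutation test) and 0.758 without those mice. For *Col5a1* r was 0.872 (adjusted p = 0.230 from the exact permutation test) and 0.565 without them. For *Col19a1* r was 0.904 (adjusted p = 0.230 from the exact permutation test) and 0.696 without them. Besides *Col20a1* here and *Col8a1* above, none of the 301 relations with the TEC share or with fibroblast, endothelial, mural, choroid plexus, oligodendrocyte or precursor markers passed an adjusted p of 0.05, and by Spearman's rho none did. The TEC share itself separates the genotypes. With the mean of each genotype removed, r was 0.898 for *Col20a1* (exact permutation p = 0.00868, adjusted p = 0.261), 0.864 for *Col7a1* (exact permutation p = 0.0191, adjusted p = 0.303) and 0.691 for *Col5a1* (exact permutation p = 0.102, adjusted p = 0.557). As above, the few arrangements within genotypes keep any single relation from passing the adjustment. With the means removed, r with the summed mural markers was -0.771 for *Col7a1* (exact permutation p = 0.00347, adjusted p = 0.261), -0.677 for *Col20a1* and -0.546 for *Col5a1*, so the TEC share was not the only quantity these genes varied with. The part of the TEC share or of mural cells in the difference between genotypes was not tested.

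The type VI chains had 2 members above 0 and 4 below, with a median log2 fold change of -0.023 that kept its sign in 13 of 19 settings, from -0.15 without mouse 13M to 0.058 without 1M. *Col6a1*, *Col6a2* and *Col6a3* form the common type VI molecule. *Col6a1* was at 6.58 ± 1.99 CPM in *Atm*-WT mice against 6.39 ± 0.974 CPM in *Atm*-KO, *Col6a2* at 5.13 ± 1.60 and 4.21 ± 0.466 CPM, and *Col6a3* at 3.89 ± 0.195 and 3.98 ± 0.371 CPM. The ratio of *Col6a1* to *Col6a2* per kb of exon was 2.43, 2.39, 2.37 and 2.48 in the *Atm*-WT mice and 2.74, 2.71, 2.99 and 2.93 in the *Atm*-KO mice. It was the only one of 9 chain ratios computed whose genotypes did not overlap, was singled out after its values were seen and has no test. Its size depends on the merged exon lengths used, 5847 bases for *Col6a1* and 10998 for *Col6a2*, which are the same for every mouse. *Col6a5* was at 1.16 CPM in *Atm*-WT mouse 2M and 1.15 CPM in *Atm*-KO mouse 7F and at no more than 0.403 CPM in the other 6 mice.

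Of the transmembrane collagens, *Col25a1*, whose ectodomain is found in amyloid plaques, varied most between mice of the same genotype. It was at 7.73, 11.3, 6.88 and 23.5 CPM in *Atm*-WT mice against 9.25, 10.7, 19.6 and 3.997 CPM in *Atm*-KO, with a coefficient of variation of 62.2% and 59.6%. *Col23a1* was at 7.94 ± 0.618 and 8.86 ± 0.712 CPM, with a coefficient of 7.79% and 8.03%. *Col13a1* and *Col17a1*, the latter a part of the anchors of skin cells, had log2 fold changes of 0.16 (SE 0.26) and -0.0039 (SE 0.18). The former was 0.017 without mouse 12M and 0.31 without 7M, and the latter -0.12 without 12M and 0.11 without 13M. Over the family, *Atm*-WT mouse 32M was the lowest of the 8 mice in 18 of 43 collagens and mouse 7M the highest in 11. The median collagen lay 0.24 below the *Atm*-WT mean on the log2 scale in mouse 32M and 0.23 above it in mouse 7M, a wider span than the median difference between genotypes.

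Chains must be hydroxylated, folded, cut and crosslinked before they form a matrix, and lists of the genes for these steps were read from the same fit. None of their genes passed an adjusted p of 0.05. The median log2 fold change was -0.080 for chain hydroxylation and glycosylation, -0.17 for folding and export, 0.046 for cleavage and crosslinking, -0.15 for receptors, -0.18 for collagenases and inhibitors and 0.0094 for basement membrane partners, beside -0.061 for all protein-coding genes. Cleavage and crosslinking turned to -0.14 without mouse 7F, -0.036 without 32M and -0.00069 with halved counts. Basement membrane partners kept their sign in 11 of 19 settings (-0.087 without 32M and 0.077 without 7M). Hydroxylation and glycosylation turned to 0.0067 with a surrogate variable (-0.013 without 12M), and collagenases and inhibitors were at -0.077 without 7M. Single genes below are read beside 11.7% of all genes and 7% of protein-coding genes higher at an unadjusted p under 0.05, and 8.48% and 11.7% lower. Among 15 genes of chain hydroxylation and glycosylation, *P3h3* was higher at an unadjusted p under 0.05 (12.9 ± 1.43 CPM in *Atm*-WT, 18.9 ± 4.41 in *Atm*-KO) and *P4hb*, the shared subunit of prolyl 4-hydroxylase, lower (104 ± 4.35 and 91.9 ± 6.47 CPM). Among 12 folding and export chaperones 2 were lower at that level, *Fkbp9* (37.8 ± 2.08 against 30.2 ± 0.930 CPM) and *Sec24d* (13.04 ± 1.66 against 10.5 ± 1.85 CPM), and *Serpinh1*, the collagen chaperone HSP47, was at 22.5 ± 5.98 and 18.6 ± 1.92 CPM (log2 fold change -0.28, SE 0.17, adjusted p = 0.373 by edgeR).

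Of 13 genes of propeptide cleavage and crosslinking, *Bmp1*, the protease that trims the C-propeptide, was at 66.3 ± 16.3 CPM in *Atm*-WT mice against 102 ± 23.9 CPM in *Atm*-KO, and its enhancers *Pcolce* and *Pcolce2* were at 9.62 ± 1.92 and 10.3 ± 1.66 CPM against 7.23 ± 1.09 and 6.95 ± 1.23 CPM, all 3 at an unadjusted p under 0.05. The log2 fold changes were 0.62 for *Bmp1*, -0.41 for *Pcolce* and -0.56 for *Pcolce2*. Of 11 collagen receptors, the integrin chain *Itgb1* was lower at that level (88.3 ± 2.72 against 80.8 ± 1.37 CPM, log2 fold change -0.13), and of 10 collagenases and inhibitors the inhibitors *Timp3* (215 ± 22.01 against 161 ± 11.2 CPM) and *Timp4* (150.2 ± 8.46 against 127 ± 2.89 CPM).

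The 13 small leucine-rich proteoglycans and fibril partners tested all had fold changes below 0, with a median log2 fold change of -0.32. Of the 15322 protein-coding genes tested, 9782 were below 0 as well. Decorin (*Dcn*), which coats fibrils, was at 26.3, 29.4, 25.6 and 25.6 CPM in *Atm*-WT mice against 16.04, 19.9, 22.5 and 18.7 CPM in *Atm*-KO, with no overlap (log2 fold change -0.47, SE 0.10, adjusted p = 0.0931 by edgeR). *Fbln5*, which serves elastic fibres, was at 17.2 ± 4.29 and 10.6 ± 2.73 CPM (log2 fold change -0.70), *Prelp* at 24.1 ± 5.79 and 16.7 ± 3.32 CPM, and *Fmod* at 18.4 ± 1.80 and 14.7 ± 2.40 CPM. These 4 of 13 (30.8%) were lower at an unadjusted p under 0.05, against 8.48% of all genes and 11.7% of protein-coding genes. The direction of the list was opposite to that of 10 of the 11 fibrillar chains, and 3 of its members (*Dcn*, *Lum* and *Ogn*) also stand in the list of fibroblast markers. Among lists of other cell types, some also lay below 0. The 8 markers of microglia were all below 0 (median log2 fold change -0.30, 50% lower at an unadjusted p under 0.05), as were the 8 of astrocytes and Bergmann glia (-0.18, 37.5%) and the 8 of oligodendrocyte precursors (-0.18, 12.5%). Below 0 were also 7 of 8 oligodendrocyte markers (-0.15, 37.5%) and 7 of 8 Purkinje cell markers (-0.093, 12.5%). Over the settings these 2 medians ran from -0.21 to 0.037 and from -0.17 to -0.042. Without mouse 12M the medians were -0.14 for microglia and -0.074 for precursors (-0.12 without 32M and -0.28 without 11M), and without mice 32M and 12M they were -0.056 and -0.015, with the proteoglycan list at -0.40. Lists above 0 were granule cells (6 of 8, median 0.055, but -0.030 without 12M) and red blood cells (5 of 5, median 0.61, but 0.10 without 7F and 1.41 without 13M), and none of their members had an unadjusted p under 0.05. The mitochondrial genome took 1.04% ± 0.153 of counts in *Atm*-WT mice against 0.729% ± 0.163 in *Atm*-KO (SD, n = 4). The part of these in the proteoglycan values was not tested. Among 16 basement membrane partners 8 were above 0 and 8 below, and *Agrn*, the heparan sulfate proteoglycan agrin, was at 64.6 ± 3.02 CPM in *Atm*-WT mice against 78.3 ± 5.06 CPM in *Atm*-KO with no overlap (log2 fold change 0.28, SE 0.066, adjusted p = 0.0942 by edgeR).

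**Figure D5:**
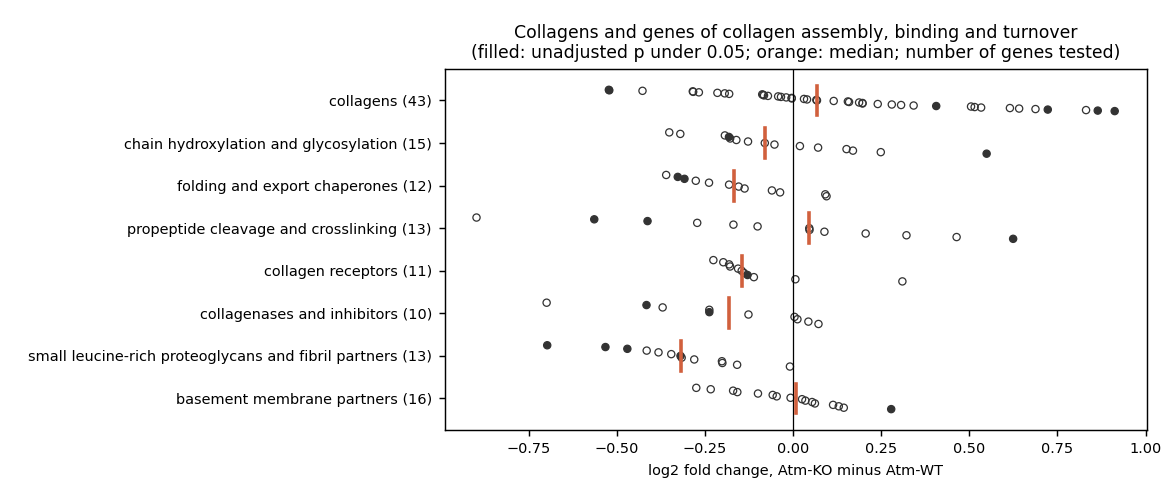
Log2 fold change, *Atm*-KO minus *Atm*-WT, of each tested gene in the collagen family and in 7 lists of genes for collagen assembly, binding and turnover (filled, unadjusted p under 0.05; orange bar, median of the list; in brackets, genes tested). The proteoglycan list lies wholly below 0, and none of the genes passed the adjusted threshold.

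The summed markers of the cells that make collagen around brain vessels and in the meninges overlapped between the genotypes. The 13 markers of meningeal and perivascular fibroblasts, led by *Dcn*, *Ogn* and *Ranbp3l*, summed to between 102 and 129.99 CPM in *Atm*-WT and between 86.4 and 110 CPM in *Atm*-KO mice, with 3 members above 0 and 10 below and 2 of 13 (15.4%) lower at an unadjusted p under 0.05, where 8.48% of all genes and 11.7% of protein-coding genes were. The 12 endothelial markers, led by *Flt1*, *Slco1a4* and *Abcb1a*, summed to between 290 and 343 CPM against 255 to 331 CPM, with 3 of 12 (25%) lower at that level. The 10 mural markers, led by *Rgs5*, *Vtn* and *Notch3*, summed to between 229 and 276 CPM against 175 to 233 CPM, with 4 of 10 (40%) lower at that level, and their median log2 fold change was -0.27 (-0.17 without mouse 12M). The red cell markers summed to between 5.87 and 49.5 CPM over all mice. The part of these cells in any collagen difference was not tested.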

How the data were processed

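Frozen cerebellum was sequenced at Novogene. The authors checked reads with FastQC 0.11.9, aligned them to GRCm39 with STAR, counted them on GENCODE genes with featureCounts and deposited raw counts per gene without normalization. The strand and pair settings are not given in the sources used here. Between 67.3% and 73.3% of the counts from 1 to 50 per library were even, so a count may be a read or a fragment, and libraries are assumed to be separate mice. Identifiers were matched without version to GENCODE vM39, which held 56017 of them (98.8%) and gave symbols, positions and exon lengths.

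Genes were kept by filterByExpr, scaled by TMM and tested with glmQLFit and glmQLFTest (edgeR 4.0.16, R 4.3.3) without covariates, 4 mice against 4, with Benjamini-Hochberg adjustment. The procedure was tested on simulated data. Relations used log2 levels and two-sided exact permutation tests, over all 8 mice and within genotypes. A gene at 1 CPM has more than 50 counts in each library. Alternatives were other scalings (RLE factors, library size alone), DESeq2 1.42.0, limma voom 3.58.1, other filters, a surrogate variable (sva 3.50.0), GC and length trends removed, and each mouse left out.

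Values in every mouse are given for collagens of at least 1 CPM with an unadjusted p under 0.05 or no overlap, for the 8 highest per length and for their partners in the same type I, IV or IX molecule. Pathway lists name the members with an unadjusted p under 0.05, at most 4, and *Serpinh1*. Other genes named, such as *Col8a1*, *Col6a5* and *Col25a1*, were chosen after their values were seen. The members and lists were chosen with earlier results of these data known.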

Additional observations from a re-analysis of the deposited data

Results flagged for a closer look

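In 4 of 120 groups of 4 mice, a mouse stood apart from the other 3 by Dixon's test at 95%, where chance would give 6. *Col1a1* was at 23.6 CPM in *Atm*-KO mouse 7F against 14.1 to 15.5 CPM in the other 3 *Atm*-KO mice. *Col11a2* was at 8.77 CPM in *Atm*-WT mouse 2M against 6.23 to 6.25 CPM. *Col20a1* was at 2.06 CPM in *Atm*-WT mouse 32M against 3.91 to 3.98 CPM. The summed markers of oligodendrocyte precursors were at 252 CPM in *Atm*-WT mouse 32M against 214 to 218 CPM.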

How the results depend on the processing

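Under 18 alternatives the median log2 fold change of the collagens kept its sign (0.064 to 0.18). The number of collagens past the adjusted threshold was 0 under the other alternatives, 2 with DESeq2 and 1 (*Col5a1*) with no filter on low counts, where 1.62% of all genes passed. Collagens higher at an unadjusted p under 0.05 were 9 with library size alone (20.9%, against 14.6% of all genes tested and 9.72% of protein-coding genes) and with no filter (20.5%, 8.9% and 6.53%), 8 with at least 10 counts in every library (20%, 13.8% and 8.64%) and with halved counts (19.5%, 13.8% and 8.56%), 7 with GC content and length trends removed (16.3%, 10.8% and 8.55%) and without mice 32M and 12M (16.3%, 7.34% and 5.01%), and from 3 to 7 with a mouse left out (all genes 7.9% to 13.8%). Those lower were 0 with library size alone, the filter of 10 counts, halved counts and trends removed (4.66%, 7.13%, 6.91% and 9.54% of all genes), 2 with no filter (4.55% against 5.93%), 3 with a surrogate variable (6.98% against 5.78%) and without mice 32M and 12M (6.98% against 6.05%), and with a mouse left out from 0 (without 2M, 7M or 1M) to 3 (without 13M or 12M), where all genes were at 5.67% to 8.63%. Groups without overlap and higher were 7 without mice 32M and 12M (16.3%, against 9.62% of all genes and 7.19% of protein-coding genes), and with a mouse left out from 2 to 7 (7 without 12M, 4 without 7M or 1M, and all genes at 7.17% to 12.6%), and lower 1 without 32M and 12M (2.33% against 8.69%) and from 0 to 1 (without 32M, all genes at 6.12% to 8.43%).

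*Atm* passed with DESeq2 (-0.66), no filter (-0.66), a surrogate variable (-0.71), trends removed (-0.70), without mouse 32M and without mice 32M and 12M (-0.73), and ranged from -0.74 to -0.59 with a mouse left out. Of 555 values of 31 collagens whose levels or fold changes the text rests on, 512 kept direction and side, 3 passed and 40 changed sign. *Col22a1* and *Col24a1* were not tested with at least 10 counts in every library, nor *Col28a1* with halved counts. *Col1a2* was 0.015 with library size alone and from -0.11 to 0.026 with a mouse left out. *Col3a1* was -0.049 without 32M and 12M and from -0.045 to 0.37. *Col4a2* was 0.078 with a surrogate variable, 0.023 without 32M and 12M and from -0.17 to 0.077. *Col6a1* was 0.013 with library size alone, 0.015 with trends removed and from -0.16 to 0.18. *Col25a1* was 0.44 with a surrogate variable, 0.61 without 32M and 12M and from -0.62 to 0.34. *Col12a1* was 0.034 with library size alone, 0.0072 with the filter of 10 counts, 0.00011 with trends removed, 0.0070 with halved counts and from -0.13 to 0.11 with a mouse left out. *Col13a1* was -0.060 without 32M and 12M. *Col17a1* was 0.0018 with RLE factors, 0.049 with library size alone, 0.022 with the filter of 10 counts and with halved counts, 0.060 with trends removed and from -0.12 to 0.11. With limma voom *Col22a1* was -0.19 (from -0.15 to 0.37 with a mouse left out) and *Col24a1* -0.27. The cause was not tested. Fibrillar chains above 0 numbered 9 to 11, and proteoglycans and fibril partners below 0 numbered 12 or 13. Halved counts, leaving out both 32M and 12M and removing genotype means from the relations were chosen after seeing the data. No paired analysis was possible because the labels pair no mice.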
